A study of Macaca mulatta with 28 samples.

Results

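Cadherins and protocadherins were described in brain tissue of 28 rhesus macaques, all male, with a history of voluntary ethanol drinking. The members were all genes of the deposited gene table whose symbol starts with CDH and a digit or with PCDH, with a value of at least 10 normalized reads in at least 5 libraries. The symbols matched 79 genes, and 78 of them were kept among 15521 genes in the table and 13022 that passed the same filter. The one left out was CDH16, which lay below the filter. The members were 4 type I and 12 type II classical cadherins, 4 other cadherins, 4 delta-1, 5 delta-2 and 2 other single protocadherins, and 14 alpha, 13 beta and 20 gamma genes of the clustered protocadherins.

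Cadherins are calcium-dependent adhesion proteins. Classical cadherins bind partners of their own kind on the neighbouring cell and are tied by catenins to the actin skeleton, and brain nuclei are known for carrying different combinations of the type II members. Delta protocadherins guide axons and shape synapses. In the clustered protocadherin locus each variable exon has its own promoter, single neurons use a small and largely random set of these exons, and the proteins let a neuron tell its own branches from those of other cells. The last exons of the alpha and gamma arrays, called C-type, are known to be used more evenly than the rest. The adult forebrain is known to express many members of each class.

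Each library came from 1 animal and held total RNA, depleted of ribosomal RNA, of a dissected tissue block that contained the central nucleus of the amygdala (CeA). Every animal was induced to drink dilute ethanol and then had open access to ethanol and water for more than a year, so that no ethanol-free group was among the 28. The labels sort the animals by how much and how often they drank into 4 categories, low (LD, 10 animals), binge (BD, 5 animals), heavy (HD, 7 animals) and very heavy drinkers (VHD, 6 animals). No allele or strain is named. Libraries are called here by category and a number that only names them, such as HD_5. The animals belonged to 4 cohorts, whose average age was 8.24 years at induction and 9.98 years after the last open access period in cohort 4. These ages were 5.63 and 7.15 years in cohort 5, 4.18 and 5.70 years in cohort 7a, and 5.69 and 7.18 years in cohort 7b. Cohort and category were uneven. Cohort 4 held 4 LD, 3 BD and 1 HD animal, and cohort 5 held 3 HD and 4 VHD animals and no low drinker. Cohort 7a held 3 LD, 1 BD, 2 HD and 2 VHD animals, and cohort 7b held 3 LD, 1 BD and 1 HD animal. p-values compare the spread between single animals.

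Depth ran from 1910514 to 25928489 reads on exons of genes, with a median library at 16444833, and the 3 with the fewest were BD_1, LD_1 and HD_1 of cohort 4. A block is more than its nucleus, and the tissue markers varied between blocks. GAD1, a marker of inhibitory neurons, was present in all libraries at 4183 to 10471 normalized reads. The opioid peptide gene PENK ranged from 1161 to 32856, the CeA marker PRKCD from 174 to 917, and the cortical marker TBR1 from 0 to 694. CHAT, which defines cholinergic neurons, ranged from 0 in 2 libraries to 1687. Fewer cells of a type and less RNA per cell cannot be told apart in such bulk tissue, here or in any result below.

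The first question was which members the tissue contained and at what level. Levels between genes are given as normalized reads per kilobase (kb) of exon. The median of the 13022 tested genes was 160 per kb, and 21 of 78 members lay above it. PCDH9, a delta-1 protocadherin, had the highest mean of the members at 986 ± 163 normalized reads per kb (SD, n = 28). CDH2, the N-cadherin of neural junctions and synapses, followed at 909 ± 77.1 per kb. PCDH9 stood at percentile 91.3 of the tested genes and CDH2 at percentile 90.3.

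Among the delta protocadherins, PCDH10 averaged 676 per kb, PCDH7 641, the X-linked PCDH11X 622, PCDH17 557, PCDH1 485 and the X-linked PCDH19, an epilepsy gene, 409. These neighbours in the order overlapped in their ranges over libraries. PCDH8, known as the activity-regulated arcadlin, averaged 304 per kb. PCDH18 was the lowest delta member at 41.6 per kb. Of the other single protocadherins, PCDH20 reached 185 per kb and PCDH15, a tip-link protein of hair cells, 69.9 per kb.

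Type II cadherins ranged over more than a decade. CDH8 was the highest at 524 ± 301 per kb, and its SD was the widest of the members above the gene median. CDH18 averaged 364 per kb, CDH11 311, CDH10 291 and CDH7 161. CDH5, the VE-cadherin of blood vessels, was the lowest of the class at 39.0 per kb. Type I members split in the same way. CDH4, the R-cadherin, averaged 209 per kb, CDH3, the P-cadherin, 20.7 per kb, and CDH1, the E-cadherin of epithelia, 10.8 per kb. CDH13, a cadherin held to the membrane by a lipid anchor, averaged 427 per kb. The remaining other cadherins were low, with CDH26 at 19.2, CDH23, the partner of PCDH15 at the tip link, at 11.7 and CDH17, known from liver and gut, at 4.52 per kb.

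Clustered protocadherins stood lower than the others. Only 4 of 47 clustered genes lay above the median of all genes, against 17 of 31 other members, and the median member had 34.7 per kb in the clusters and 185 per kb outside them. The clusters lie on chromosome 5 of the exon table, from position 138324297 (start of PCDHA1) to 139022662 (end of PCDHGC5), and each clustered gene is listed there as 1 exon, its variable exon. The genome build is not given in the sources used here. Constant exons shared by an array were therefore not part of these values. The variable exons resemble each other, and how the counting treated reads that match several of them is not given in the sources used here, so each value is uncertain to that extent.

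**Figure D1:**
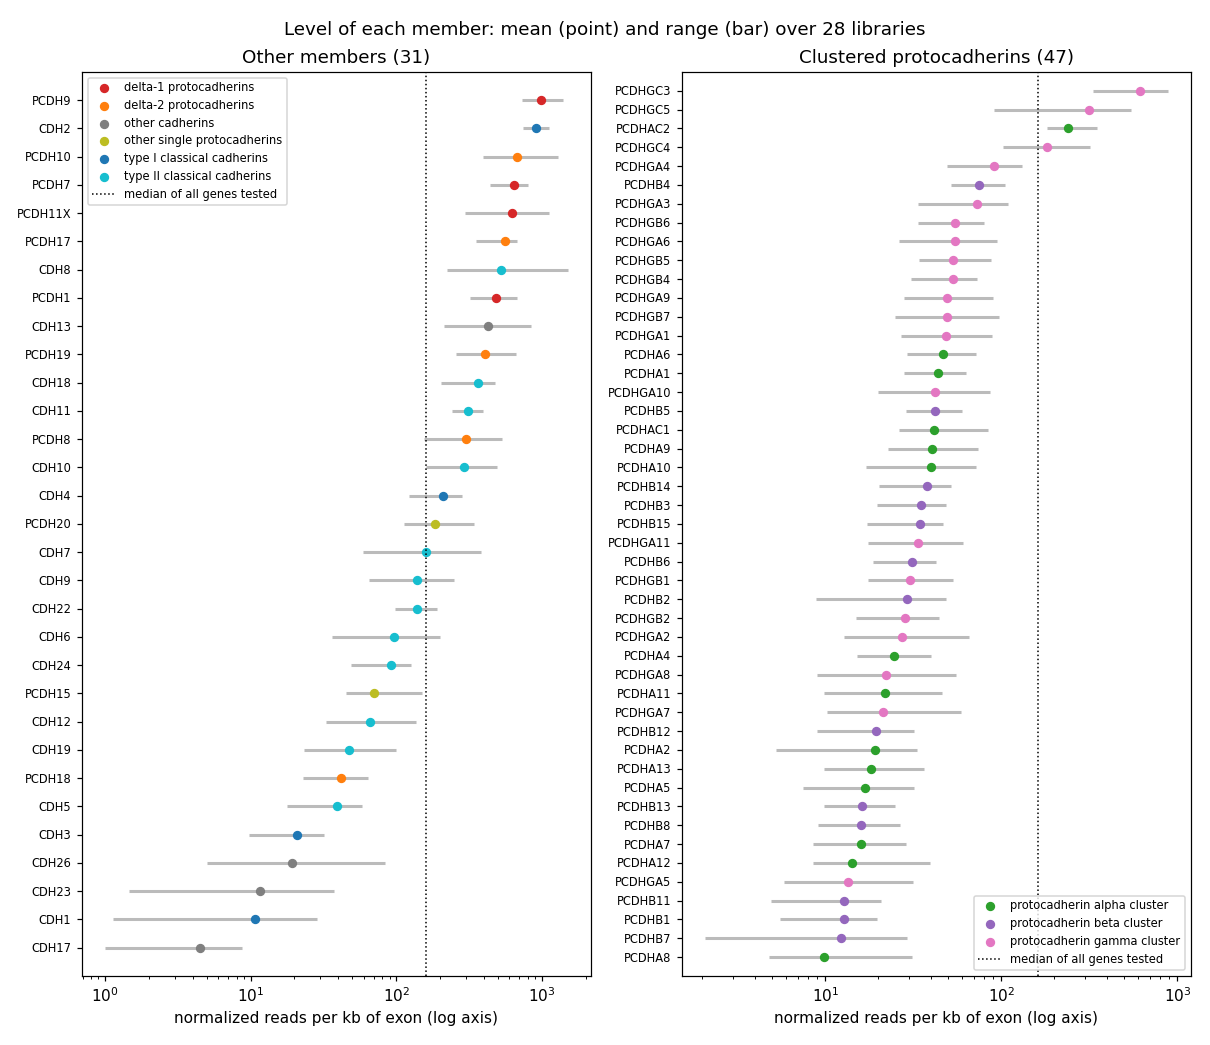
Mean level of each member (point) with its range over 28 libraries (bar), in normalized reads per kb of exon on a log axis, coloured by class, with bars that reach 0 cut at 1. Members outside the clusters (left) spread from CDH17 at 4.52 to PCDH9 at 986 per kb, while 43 of 47 clustered genes (right) lie below the dotted line at the median of all tested genes, and the 4 above it are PCDHGC3, PCDHGC5, PCDHAC2 and PCDHGC4.

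Within the clusters, the reads were concentrated in the exons at the end of 2 arrays. PCDHGC3, a C-type gamma exon, averaged 611 ± 119 normalized reads per kb (SD, n = 28) and took 33.5% of the reads of all gamma variable exons, with single libraries from 25.5% to 41.7%. PCDHGC5, the last exon of the gamma array, averaged 314 per kb and took 16.9%, with libraries from 4.69% to 31.7%. PCDHGC4, known to be needed for the survival of interneurons, averaged 183 per kb and took 9.70% (5.96% to 16.4%). In the alpha array, PCDHAC2, known from the tiling of serotonergic axons, averaged 240 per kb and took 48.6% (34.5% to 56.4%). PCDHAC1 did not share this level, at 41.5 per kb and 6.82% of the alpha reads. The median was 48.3 per kb for the gamma A and B exons, 20.5 per kb for the alpha exons without the C-type and 29.1 per kb for the beta genes. The beta array has no C-type exon, and its highest gene, PCDHB4, took 23.2% of the beta reads (15.9% to 36.2%) at 74.8 per kb. The 42 clustered genes that are not C-type ranged from 9.82 per kb for PCDHA8 to 90.6 per kb for PCDHGA4, and none lay above the median of all genes.

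Clustered genes of one array moved together to different degrees across the 28 libraries. Pearson's r between 2 genes had a median of 0.50 over the pairs of gamma A and B exons, which ranged from 0.03 to 0.83. The median was 0.24 among the alpha exons without the C-type, 0.12 among the beta genes, 0.02 among the 31 members outside the clusters and 0.00 among all genes tested. The C-type exons had a median of -0.32, from -0.72 between PCDHGC5 and PCDHGC4 to 0.89 between PCDHAC1 and PCDHAC2. These values are descriptions, since all genes share the same libraries and scaling. LD_1, of 6474295 reads, held the highest value for 20 of the 47 clustered members. LD_3, the deepest library at 25928489 reads, held the lowest value for 10 of them. The correlations between genes were not computed without these libraries. Outside the clusters, CDH8 was paired most closely with PCDHAC1 (r = 0.89), PCDHAC2 (0.89) and CDH10 (0.89). PCDHGC5 was paired with PCDH1 (0.77), and CDH24 with CDH4 (0.82).

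The next question was which members varied between blocks and which were uniform. A member is called variable here if the SD of its log2(value + 1) over the 28 libraries was at or above percentile 80 of all tested genes (0.483), and uniform if it was at or below their median (0.266). By this description, 22 members were variable, 10 were uniform and 46 lay between. PCDH8 was just inside the upper line with an SD of 0.487 and CDH10 just outside with 0.479. PCDHB4 was just inside the lower line with 0.265 and PCDHB6 just outside with 0.269.

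CDH2 was the most uniform member. Its lowest, median and highest values were 2977, 3585 and 4459 normalized reads, with an SD of 0.12 on the log2 scale, and 4.11% of all genes had a smaller SD. Its median was 3585 in the LD group and 3439 in the BD group, and 3798 and 3616 in the HD and VHD groups, and all groups overlapped. CDH22 (SD 0.18) and CDH11 (SD 0.18) were the uniform type II members, and CDH11 ranged from 883 to 1439. PCDH7 (SD 0.20), PCDH9 (SD 0.23) and PCDH17 (SD 0.23) were uniform among the delta protocadherins, with PCDH9 between 4492 and 8596 normalized reads. PCDHAC2 (SD 0.24), PCDHA1 (SD 0.26), PCDHB5 (SD 0.22) and PCDHB4 completed the list.

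CDH8 was the most variable member of high level. Its lowest, median and highest values were 938, 1793 and 6344 normalized reads, an SD of 0.70 on the log2 scale. The 5 BD libraries alone read 2982, 4929, 1602, 1651 and 1067, which spans most of the range of the other categories. CDH6 ranged from 214 through a median of 487 to 1174 (SD 0.65). CDH12 ranged from 122 to 506 (SD 0.60), CDH9, which joins hippocampal mossy fibres to their targets, from 200 to 768 (SD 0.56), CDH7 from 160 to 1045 (SD 0.52) and CDH19, a glial cadherin of the Schwann cell lineage, from 140 to 605 (SD 0.52). With CDH8, these were 6 variable members of 12 in the type II class. All 4 other cadherins were variable, among them CDH13, which ranged from 711 to 2827 (SD 0.51). PCDHGC5 ranged from 223 through 813 to 1336 (SD 0.63), while its neighbour PCDHGC3 ranged from 838 to 2240 and was not variable.

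Low counts widen the SD of variable members with few reads, to different degrees. CDH1 had the largest SD, 1.11, at 5.81 to 147 normalized reads, of which counting alone would give an SD of about 0.298. CDH17, with an SD of 1.0, ranged from 0 to 32.1, and CDH23 (SD 0.94) from 6.13 to 158. For PCDHB7 (SD 0.64) the counting part was 0.345, and for PCDHA8 (SD 0.56) 0.352. For CDH8 it was 0.039 and for CDH2 0.028, far below their SDs over libraries. CDH26 (SD 0.72) ranged from 16 to 267, and the highest value came from LD_1. Without LD_1 there were 19 variable members, and leaving out single libraries gave 19 to 27 variable and 8 to 11 uniform members.

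**Figure D2:**
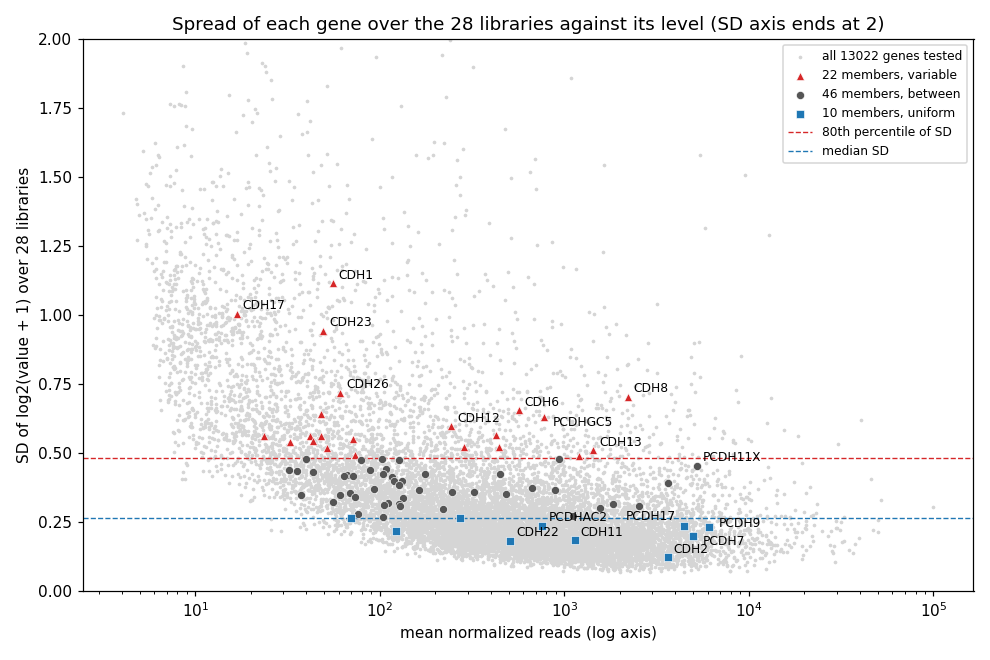
SD of log2(value + 1) over 28 libraries against the mean normalized reads (log axis) of all 13022 tested genes (grey), with the 22 variable, 46 intermediate and 10 uniform members marked and the 80th percentile and median of the SD drawn as dashed lines; the axis ends at 2. CDH2 sits at the lower edge of the cloud near an SD of 0.12, and CDH8, CDH6 and PCDHGC5 stand above the upper line at means above those of most members.

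Members were then set against 11 marker scores, each the mean of a cell type's or neighbouring region's marker genes on the log2 scale, centred over the 28 libraries. The scores covered cortical and basolateral glutamatergic neurons, striatal medium spiny neurons, GABAergic neurons, cholinergic basal forebrain neurons, thalamus and habenula, astrocytes, myelin, oligodendrocyte precursors, microglia, endothelial cells and choroid plexus with meninges. For each gene limma gave a slope, the fold per 1 SD of a score, with cohort as a term, and p-values were adjusted over all 13022 genes with a threshold of 0.05. No member belongs to a marker list. Some listed markers were not among the tested genes and entered no score. Besides those of the thalamus score given below, they were SLC17A7 and CUX2 for the cortical and ADORA2A for the striatal score. CSPG4 was missing from the precursor score and PECAM1 from the endothelial score. In total 48 of 78 members (61.5%) passed on at least 1 score, against 59% of all tested genes. The members' share was thus near that of the genes at large. Variable members passed in 15 of 22 cases (68.2%) and uniform ones in 4 of 10 (40.0%), beside 63.5% of all variable and 51.1% of all uniform genes. The 4 uniform members were PCDHAC2, PCDH7, CDH11 and CDH2. PCDHAC2 passed on 8 scores, as many as the variable CDH8, PCDH7 on 3, and CDH11 and CDH2 on 2 each. By class the counts were 10 of 12 type II cadherins, 15 of 20 gamma, 7 of 14 alpha and 3 of 13 beta genes, 2 of 4 type I and 3 of 4 other cadherins, 3 of 4 delta-1, 4 of 5 delta-2 and 1 of 2 other single protocadherins.

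The cortical and basolateral score went with the largest number of members. It ranged from -2.43 in HD_4 to 2.28 in HD_5, and its genes TBR1, NEUROD2 and EMX1 were at 0 in some library. By limma, 14 members rose and 18 fell with it, 32 of 78 in all, where 31.6% of all genes passed (15.1% higher and 16.5% lower). CDH10 rose 1.35-fold per SD (95% interval 1.28 to 1.43, adjusted p = 2.5e-09) and CDH8 rose 1.55-fold (1.43 to 1.68, adjusted p = 2.9e-09). The 3 libraries with the highest score, HD_5, BD_2 and HD_6, held 6344, 4929 and 3374 normalized reads of CDH8, and the 3 with the lowest, HD_4, BD_5 and LD_8, held 938, 1067 and 1317. CDH10 read 1606, 1424 and 1340 in the first set and 592, 626 and 515 in the second, and CDH2 read 3927, 3629 and 4459 against 3716, 3271 and 3913. The sets did not overlap for CDH8 and CDH10 and overlapped for CDH2.

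PCDH8 (1.34-fold), CDH12 (1.33-fold), CDH23 (1.56-fold), CDH9 (1.25-fold), PCDH20 (1.19-fold), PCDHAC1 (1.28-fold) and PCDHAC2 (1.15-fold) also rose with the cortical score. CDH6 (0.74-fold), CDH7 (0.78-fold), CDH26 (0.73-fold) and several gamma exons, led by PCDHGB7 (0.79-fold) and PCDHGA3 (0.83-fold), fell. Across the 28 libraries the correlation with the score was r = 0.93 and rho = 0.95 for CDH10, and r = 0.92 and rho = 0.95 for CDH8. Both had a permutation p of 1e-05, the smallest that 100000 permutations can give, and an adjusted p of 0.000168 (Pearson) and 0.000245 (Spearman) over 539 relations of 49 named members with 11 scores. Many of the 49, CDH8 and CDH10 included, were named for their slopes on these scores in the same libraries. The permutation p-values here and below are therefore no separate support for the slopes. Without the 2 libraries farthest from the median score, r was 0.93 for CDH10 and 0.90 for CDH8. Within cohorts 4, 5 and 7a, r for CDH8 was 0.92, 0.96 and 0.85, and for CDH10 0.99, 0.75 and 0.88. Cohort 7b, with 5 animals, was too small for a value. The other correlations with a score given below had adjusted permutation p-values of at most 0.000359 (Pearson) and 0.000877 (Spearman) over all libraries unless stated.

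Many members named for the striatal and GABAergic scores also went with the cortical score, in the opposite direction. The cortical score correlated with the striatal score at -0.75 and with the GABAergic score at -0.76. On the striatal score 14 members rose and 8 fell, beside 18.6% of all genes called (8.16% higher and 10.5% lower). CDH7 rose 1.41-fold per SD (1.26 to 1.57, adjusted p = 6.2e-05), PCDHGA3 1.29-fold and CDH6 1.34-fold. CDH10 (0.75-fold), CDH23 (0.59-fold) and CDH11 (0.90-fold) fell. CDH7 read 231 in HD_5, the library of the lowest striatal score, and 1045 in LD_8, that of the highest. Its correlation with the score was r = 0.77 and rho = 0.76, and 0.65 without the 2 farthest libraries, and 0.60, 0.84 and 0.82 within cohorts 4, 5 and 7a. Without LD_1 the striatal calls numbered 13 and without HD_5 14, in place of 22. For fits that left out a single library, here and below, the share of all genes called is not given. Such drops are therefore not read as particular to the members. On the GABAergic score 14 members rose and 11 fell, beside 21.4% of all genes (10.8% higher and 10.6% lower). CDH24 (1.25-fold, 1.16 to 1.33, adjusted p = 3.5e-05), CDH4 (1.19-fold) and PCDH18 (1.22-fold) led the rises, and CDH8 (0.68-fold), CDH10 (0.77-fold) and PCDH8 (0.74-fold) the falls. CDH24 correlated with that score at r = 0.84 and rho = 0.75, at 0.73 without the 2 farthest libraries, and at 0.92, 0.47 and 0.91 within those cohorts. Without HD_5 there were 14 GABAergic calls in place of 25.

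**Figure D3:**
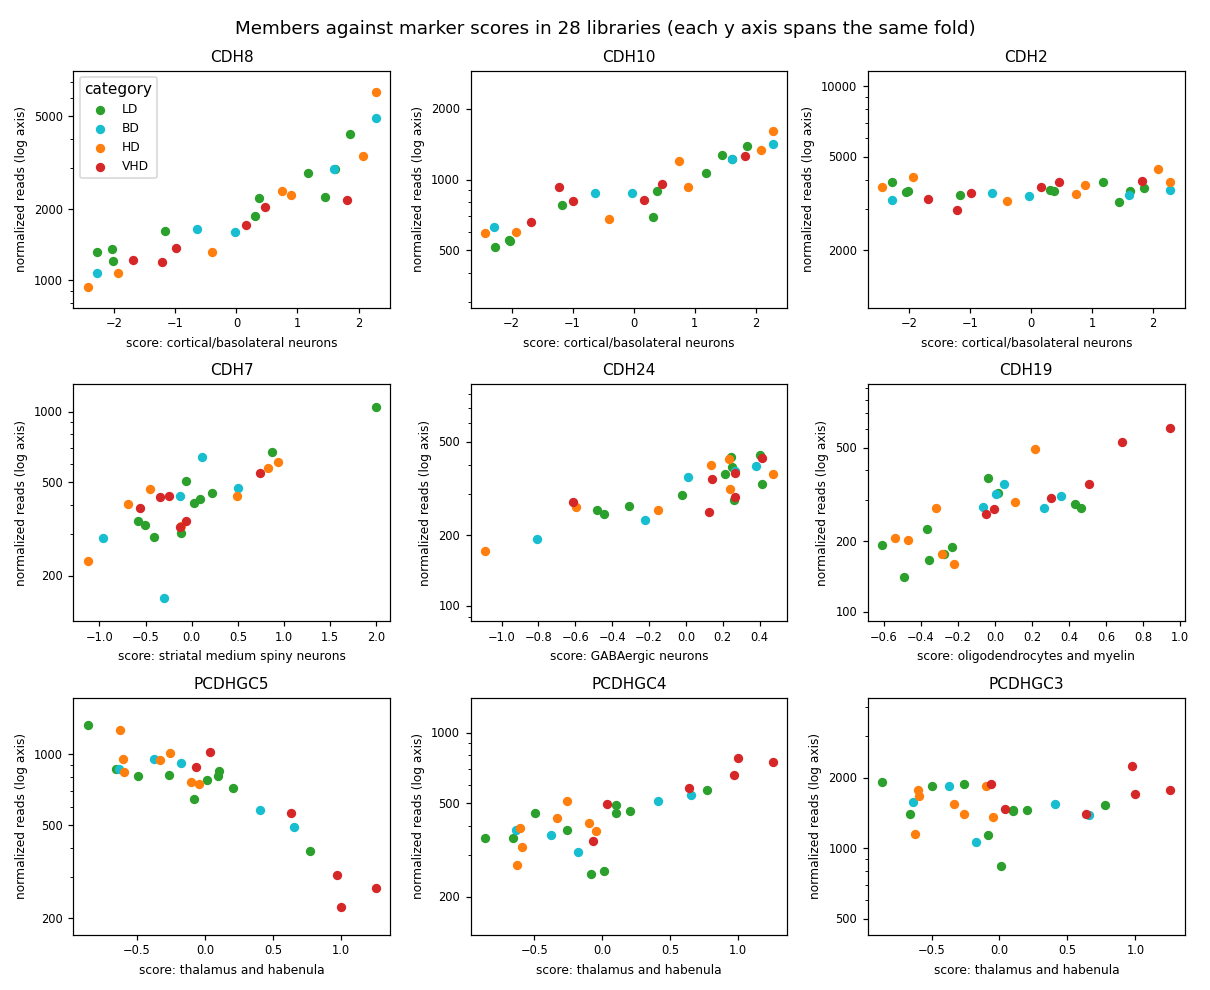
Panels of 1 member each, its normalized reads (log axis, the same fold span in each) against a marker score in 28 libraries coloured by drinking category. CDH8 and CDH10 climb with the cortical and basolateral score, from 938 to 6344 and from 515 to 1606, while CDH2 stays between 2977 and 4459; PCDHGC5 falls and PCDHGC4 climbs with the thalamus score.

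PCDHGC5 and PCDHGC4, neighbours at the end of the gamma array, ran in opposite directions. On the thalamus and habenula score PCDHGC5 fell to 0.67-fold per SD (0.62 to 0.72, adjusted p = 1.9e-08) and PCDHGC4 rose 1.23-fold (1.13 to 1.32, adjusted p = 0.00036). This score rested on 7 of its 10 listed genes, LEF1, SLC17A6, RGS16, IRX3, ADARB1, ZIC1 and ZIC4. TCF7L2, SHOX2 and IRX2 were listed but not among the tested genes, which limits what its name can stand for. On that score 5 members rose and 5 fell, beside 18% of all genes (10.9% higher and 7.15% lower). On the cholinergic score 3 rose and 11 fell, beside 22.4% of all genes (12.3% higher and 10% lower), led by PCDHGC5 (0.67-fold), PCDH1 (0.83-fold) and PCDH19 (0.83-fold) among the falls and by CDH6 (1.29-fold) among the rises. The 6 libraries with the highest cholinergic scores were also the 6 with the highest thalamus scores and the 6 lowest in PCDHGC5. In these, VHD_3, VHD_5, VHD_4, LD_7, BD_4 and VHD_2, PCDHGC5 read 223, 270, 307, 387, 489 and 562 normalized reads. PCDHGC4 read 779, 750, 657, 569, 541 and 580, and CHAT 1687, 1450, 1566, 826, 606 and 376. These blocks came from cohorts 5 and 7a and from 3 drinking categories. The ratio of PCDHGC5 to PCDHGC4 ranged from 0.286 in VHD_3 to 4.64 in HD_5.

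The relations with these scores were also computed without some of the libraries. The correlation of PCDHGC5 with the thalamus score was r = -0.90 and rho = -0.79, and -0.87 without the 2 farthest libraries. Within cohorts 4, 5 and 7a it was -0.77, -0.92 and -0.97. For PCDHGC4 it was r = 0.76 and rho = 0.71, and 0.65 without the 2 farthest libraries, with 0.01, 0.92 and 0.89 within those cohorts. In a fit chosen after the data were seen, without the 5 libraries of the highest cholinergic score, r was -0.74 for PCDHGC5 (adjusted p = 0.000869) and 0.45 for PCDHGC4 (adjusted p = 0.0932, permutation tests). That fit left 4 members on the thalamus score and none of 78 on the cholinergic score by limma, with 15 at an unadjusted p under 0.05. The cholinergic slope of PCDHGC5 was then 0.850 (adjusted p = 0.193), that of PCDH1 0.864 (adjusted p = 0.161) and that of PCDH19 0.860 (adjusted p = 0.105), and only 21 genes of the whole table were called.

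Glial and other scores were each followed by members of several classes. With astrocytes 13 members rose and 10 fell, beside 28.2% of all genes (15.5% higher and 12.7% lower). The rises were led by CDH6 (1.34-fold), PCDHGC3 (1.13-fold) and PCDHGC4 (1.20-fold), and the falls by CDH8 (0.72-fold), PCDHGC5 (0.75-fold) and PCDHAC2 (0.89-fold). With oligodendrocyte precursors 11 rose and 11 fell, beside 26.3% of all genes (14.3% higher and 11.9% lower), again with PCDHGC3 (1.16-fold) and CDH6 (1.32-fold) rising and CDH8 (0.71-fold) falling. PCDHGC3 correlated with the precursor score at r = 0.80 and rho = 0.72, at 0.73 without the 2 farthest libraries, and within cohorts 4, 5 and 7a at 0.84, 0.84 and 0.83. With microglia 9 rose and 11 fell, beside 25% of all genes (12.8% higher and 12.2% lower), with PCDHGB7 (1.22-fold) and PCDHB15 (1.17-fold) rising and CDH8 (0.69-fold) and PCDH8 (0.75-fold) falling. With choroid plexus and meninges 4 rose and 9 fell, beside 17.3% of all genes (8.55% higher and 8.74% lower), with CDH6 (1.38-fold) rising and CDH12 (0.75-fold) and CDH23 (0.60-fold) falling. FOLR1, CLIC6, OTX2 and KCNJ13, genes of the choroid plexus, were at 0 in some library. Without HD_5 the astrocyte calls numbered 15 in place of 23.

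Fewer members went with the myelin score, 2 members higher and 6 lower beside 14.4% of all genes (8.29% higher and 6.07% lower). CDH19 rose 1.35-fold per SD (1.24 to 1.47, adjusted p = 8.2e-06), from 140, 192 and 205 normalized reads in LD_3, LD_2 and HD_5, the libraries of the lowest scores, to 350, 527 and 605 in VHD_5, VHD_4 and VHD_3, those of the highest. The 2 sets did not overlap. Its correlation was r = 0.81 and rho = 0.77, with 0.71 without the 2 farthest libraries and 0.82, 0.95 and 0.78 within cohorts 4, 5 and 7a. PCDH19 (0.86-fold), PCDHGC5 (0.74-fold), PCDH7 (0.90-fold) and PCDHGC4 (1.17-fold) also passed, and CDH2 moved least, at 0.95-fold. The list was 4 members long without VHD_3, VHD_4 or VHD_5, 5 without HD_5 or HD_6 and 13 without LD_2. No member passed on the endothelial score by limma, where 0.23% of all genes did, with 8 members at an unadjusted p under 0.05 (9.32% of all genes). edgeR and DESeq2 were not run on the scores. CDH5 was correlated with that score at r = 0.51 and rho = 0.47 (adjusted permutation p = 0.0205 and 0.0419), with 0.46 without the 2 farthest libraries and 0.45, 0.52 and 0.63 within cohorts 4, 5 and 7a.

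**Figure D4:**
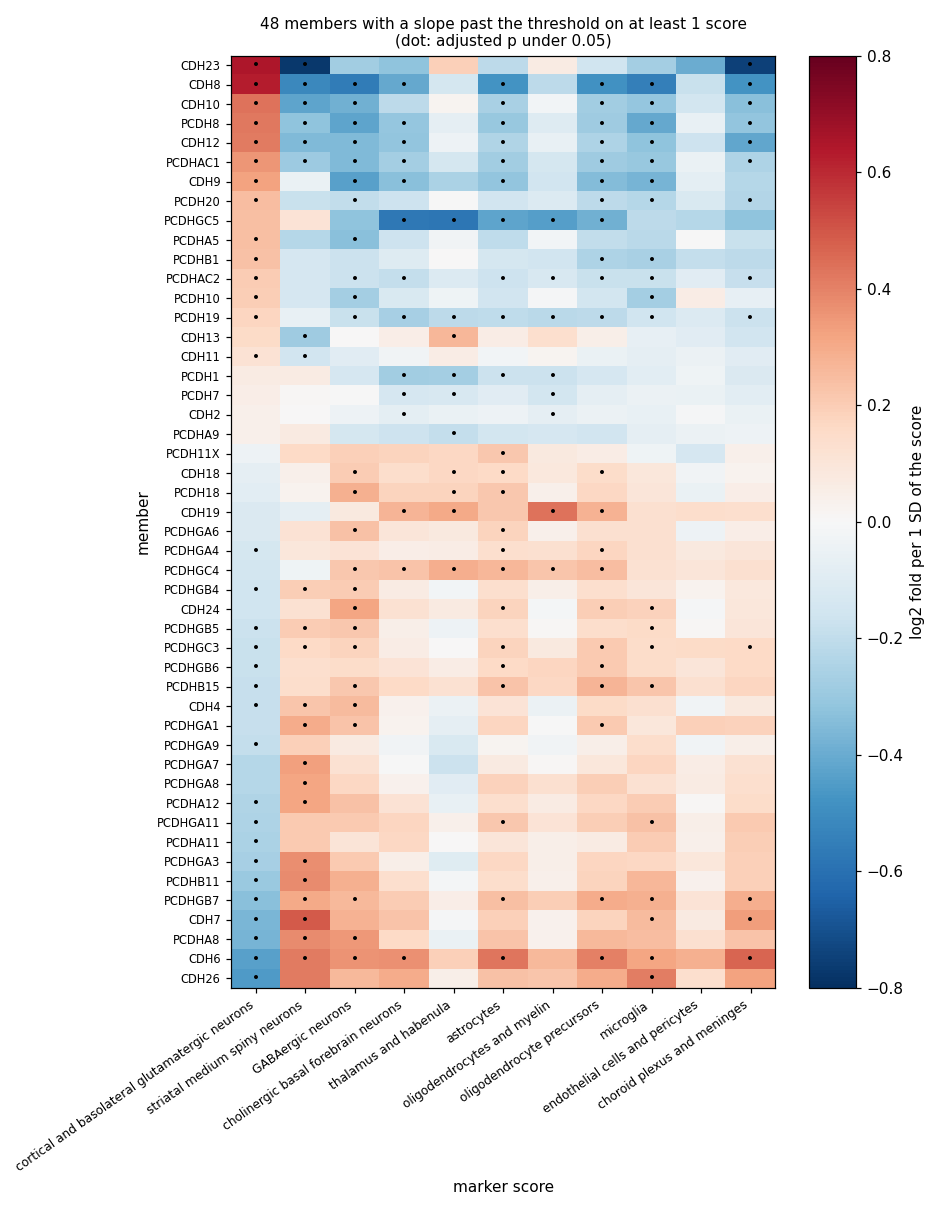
Log2 fold per 1 SD of each of 11 marker scores (columns) for the 48 members with at least 1 slope past the threshold (rows, ordered by the cortical slope), with a dot where the adjusted p was under 0.05. CDH23, CDH8 and CDH10 head the rows that rose with the cortical and basolateral score, CDH26 and CDH6 the rows that fell with it, and the endothelial column holds no dot.

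The scores were themselves related. The cortical score correlated with the choroid plexus score at -0.82, with the GABAergic score at -0.76 and with the striatal score at -0.75, and the astrocyte with the precursor score at 0.83. When the cortical, striatal, cholinergic and myelin scores entered 1 fit together, chosen after the data were seen, 8 slopes of members still passed by limma. The share of all genes that passed in this fit is not given here, so the number is not read as particular to the members. CDH10 (1.33-fold, adjusted p = 0.000126) and CDH8 (1.49-fold) rose with the cortical score, CDH7 (1.35-fold) and PCDHGA3 (1.23-fold) with the striatal and CDH19 (1.33-fold) with the myelin score. PCDH1 (0.78-fold), PCDHGC5 (0.71-fold) and PCDH19 (0.89-fold) fell with the cholinergic score. Some members of wide spread passed on no score in the single fits. They were CDH1, CDH17, PCDHA2, PCDHA13, PCDHB7, PCDHGA2 and PCDHGA5, and CDH1 correlated with the 11 scores at r between -0.22 and 0.05.

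The drinking categories were compared to ask whether members differed with intake. No member passed the adjusted threshold by limma in HD and VHD animals (13, heavy) against LD and BD animals (15, low), in VHD, HD or BD against LD, or in the trend over the 4 categories, and the share of all 13022 genes that passed was 0% in each. At an unadjusted p under 0.05 there were 5 members of 78 in heavy against low (4.18% of all genes), 5 in VHD against LD (8.57%), 6 in HD against LD (3.96%), 3 in BD against LD (3.52%) and 5 in the trend (4.85%). edgeR also called no member or gene in these comparisons, with 5, 5, 5, 1 and 5 members unadjusted. DESeq2 called no member, with 6, 6, 7, 1 and 6 unadjusted, and 1, 4, 1, 0 and 0 genes of the table. Fitted folds of heavy against low ran from 0.701 for CDH1 to 1.50 for PCDHB12, and 53 of 78 were above 1 where 50% of all genes were. Members covaried, with a median r of 0.50 among the gamma A and B exons, so these are not 78 separate signs. Cohorts 4 and 7b also entered with 1 heavy animal each, HD_1 and HD_7. No lean of the family is read from this number. The 95% interval lay within 2-fold either way for 72 members. The median fold was 1.07 for the members and 1.0 for all genes.

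PCDH9 had the smallest p among the abundant members. Its lowest, median and highest values were 4492, 5656 and 7227 normalized reads in LD, 4824, 5799 and 8596 in HD and 5800, 7002 and 7496 in VHD, and the 5 BD libraries read 5724, 7069, 5384, 5946 and 4899. The VHD median was the highest of the 4 medians, and all groups overlapped. The fold was 1.35 in VHD against LD (95% interval 1.12 to 1.63, p = 0.00253, adjusted p = 0.522 by limma) and 1.23 in heavy against low (1.06 to 1.42, p = 0.00768, adjusted p = 0.998). Within cohorts the heavy animals differed from the low ones by 0.52 (log2) in cohort 4, with 1 heavy animal, 0.25 in cohort 7a with 4 against 4, and 0.16 in cohort 7b with 1 heavy animal. Cohort 5 held no low drinker.

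CDH19 read 140, 209 and 373 normalized reads in LD (lowest, median, highest), 160, 205 and 494 in HD and 261, 327 and 605 in VHD. The groups overlapped, and the 5 BD libraries, at 281, 317, 312, 351 and 277, lay within the VHD range. The fold in VHD against LD was 1.77 (1.15 to 2.74, p = 0.0120, adjusted p = 0.532 by limma). The myelin score, with which CDH19 rose above, averaged -0.15 ± 0.36 (SD) in LD and 0.40 ± 0.39 in VHD. Its 12 genes, all tested and none at 0, summed to 50023 to 106075 normalized reads in LD, 77900 to 101586 in BD, 54578 to 88470 in HD and 74887 to 143127 in VHD. With the 4 scores as covariates, a fit chosen after the data were seen, the fold was 1.29. The cause of the fold was not tested.

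PCDHGC5 had lowest, median and highest values of 387, 809 and 1336 normalized reads in LD, 748, 952 and 1270 in HD and 223, 435 and 1021 in VHD. The BD libraries read 866, 920, 579, 489 and 959. VHD reached lowest, and all groups overlapped. The fold in VHD against LD was 0.676 (0.400 to 1.14, p = 0.137, adjusted p = 0.696 by limma) and ranged from 0.489 to 0.861 when single libraries were left out. The 8 cholinergic marker genes summed to 332 to 10800 normalized reads in LD, 72.7 to 6935 in BD, 56.7 to 2026 in HD and 130 to 22948 in VHD, and CHAT and SLC18A3, which define these neurons, were among those at 0 in some library. With the 4 scores as covariates the fold was 0.899, and without the 5 libraries of the highest cholinergic score it was 0.939. Both fits were chosen after the data were seen, and the cause of the fold was not tested.

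**Figure D5:**
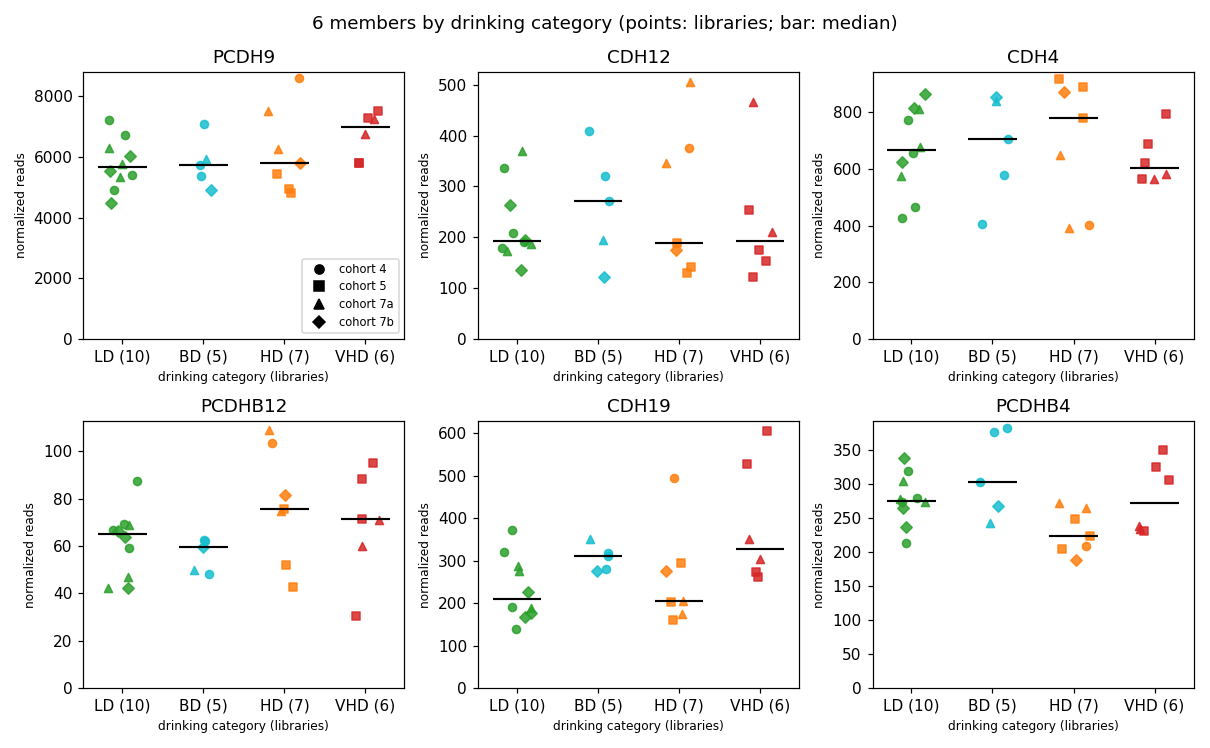
Normalized reads of 6 members in every library by drinking category (number of libraries in brackets), with the marker shape for the cohort and a bar at the median. For PCDH9 the VHD median of 7002 lies above the LD median of 5656, and in each panel the ranges of the 4 categories overlap.

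Several further members had small unadjusted p-values and did not pass. PCDHB12 had 42.2, 65.0 and 87.5 normalized reads in LD, 42.9, 75.7 and 109 in HD and 30.5, 71.4 and 95 in VHD, with BD at 48.1, 62.6, 62.1, 49.9 and 59.5. Its fold in heavy against low was 1.50 (1.13 to 2.00, p = 0.00682, adjusted p = 0.998 by limma). These ranges overlapped throughout. PCDHB4 had a fold of 0.807 in the same comparison (p = 0.0236), CDH12 1.44 (p = 0.0282) and CDH4 0.810 (p = 0.0531). For CDH12 the fold was 0.9995 without the cohort term. CDH5 had a fold of 0.699 in BD against LD (0.541 to 0.904, p = 0.00821, adjusted p = 1), with LD libraries from 128 to 243 and BD libraries at 168, 115, 168, 73.8 and 136. In HD against LD the smallest p values after PCDHB12 and PCDHB4 included PCDHB13 (1.31-fold), PCDHGA1 (0.774-fold) and PCDH17 (0.884-fold). Those of BD against LD included PCDHA11 (0.711-fold) and PCDHB14 (0.775-fold). Both were lowest of all libraries in BD_1, at 32.1 and 56.1 normalized reads. BD_1 had the fewest reads, and 3 reads there make 24 normalized reads. PCDHA11 was highest in LD_1, at 150.

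The members with the widest spread had wide intervals between categories. CDH8 had a fold of 1.11 in heavy against low (0.696 to 1.76), with lowest, median and highest values of 1205, 2062 and 4192 in LD, 938, 2305 and 6344 in HD and 1196, 1538 and 2189 in VHD. CDH9 had 1.35 (0.927 to 1.97) and CDH13 0.958 (0.704 to 1.30). For the uniform CDH2 the interval was narrow, 1.09 (0.994 to 1.19).

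Cohorts were compared with category as a term. No member and no gene passed by limma (0% of 13022), and 11 members had an unadjusted p under 0.05, beside 9.41% of all genes. edgeR called none, with 10 unadjusted, and DESeq2 called 1 member, CDH12, and 24 genes. CDH12 averaged 286 ± 87.5 (SD) normalized reads in cohort 4, 167 ± 45.3 in cohort 5, 307 ± 134 in cohort 7a and 178 ± 55.9 in cohort 7b (p = 0.000804, adjusted p = 0.330 by limma). CDH4 averaged 551 ± 147, 750 ± 132, 637 ± 145 and 805 ± 103 in the same order (p = 0.00117, adjusted p = 0.330). Cohorts differ in age and in category, and cohort 5 held heavy animals only. In a fit of the heavy effect in cohort 7a against the other cohorts no member or gene passed, with 6 members unadjusted and a lowest adjusted p of 0.586.

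Relative exon use was tested in 26 members with 3 or more tested exons, by limma's diffSplice in heavy against low drinkers. No member passed and none had an unadjusted p under 0.05, beside 0.0917% of 9817 genes called and 1.73% unadjusted. The spread used by this test includes variation between blocks that all exons of a gene share. It could hardly call a member that varies between blocks, such as CDH6 (p = 0.998) or CDH13 (p = 0.999). No conclusion on exon use is drawn for such members. PCDH11X had the smallest p of the members, 0.347 over 6 exons. CDH2 with 16 exons had p = 0.720. The clustered genes, with 1 exon each, could not be tested.

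The partners of the family were read from lists of 65 tested genes. They were 14 catenins and junction partners, 7 proteases that shed or process cadherins, 15 cytoplasmic partners of protocadherins, 12 regulators of the clustered locus such as CTCF and cohesin, and 17 large cadherins and relatives. By limma 0 of 65 passed in each of the 5 category comparisons and between cohorts. In VHD against LD, 5 of 65 had an unadjusted p under 0.05, a share below the 8.57% of all genes. They included FAT1, a giant cadherin (1.33-fold, p = 0.00412, adjusted p = 0.529) and CTNNA3, the alpha-T catenin (1.62-fold). On the marker scores single genes of the lists passed, and on the endothelial score none of the 65 did, where 0.23% of all genes passed. Of the 12 locus regulators, 9 fell with the cortical score and none rose, where 16.5% of all genes fell, and 9 rose with the microglia score, where 12.8% of all genes rose. Of the 15 cytoplasmic partners, 1 rose and 9 fell with the cholinergic score, where 12.3% of all genes rose and 10% fell. The actin regulator WASF1 fell to 0.731-fold per SD of that score and the receptor RET, a partner of clustered protocadherins, rose 1.74-fold. Of the 17 large cadherins, 3 rose and 5 fell with the cortical score, where 15.1% of all genes rose and 16.5% fell, with CLSTN2, a calsyntenin of synapses, at 1.82-fold and CDHR1, a photoreceptor cadherin, at 0.512-fold. DSP, which anchors desmosomal cadherins, rose 2.71-fold per SD of the striatal score. Of the 14 catenins and partners, 3 rose with the myelin score, among them CTNNA3 (1.37-fold), and none fell, where 8.29% of all genes rose and 6.07% fell. Of the 7 proteases, FURIN, a convertase of cadherin precursors, fell to 0.782-fold with the GABAergic score, where 2 of the 7 fell and 10.6% of all genes did.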

How the data were processed

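Total RNA from tissue blocks of 28 macaques was sequenced as stranded libraries, per the labels' protocols. Per the submitters' processing notes, CASAVA, FastQC, STAR 2.3.0e and edgeR were used, with no order given. For the genome build, the annotation and the counting setting, strand use included, nothing is given in the sources used here. Per gene, the authors deposited a signal, the reads on its exons, scaled by the upper quartile of each library. Per exon, the value the authors deposited is a score, made alike and rounded to whole numbers. Of the 30 columns of each table, 28 were used and 2 were not. Among the values of genes, 100% lay within 0.02 of a whole multiple of the library's step, so whole reads could be recovered. edgeR on these reads called 0 genes in the category and cohort comparisons.

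Genes with at least 10 normalized reads in at least 5 libraries (13022) were tested as log2(value + 1), so a fold understates the change of low genes. limma 3.58.1 (R 4.3.3) with a mean-variance trend and cohort as a term compared heavy with low drinkers and fitted the slopes on marker scores. Separate fits gave the 4 categories, the trend and the cohorts. p-values are two-sided and adjusted by Benjamini-Hochberg (threshold 0.05). edgeR 4.0.16 and DESeq2 1.42.0 were alternatives, and so were pseudocounts of 0.5 and 8, a filter of 50 or none, other scaling, models without cohort and libraries left out. Slopes are per 1 SD of a score. Correlations have permutation p-values (100000 resamples, scipy 1.17.1, numpy 2.4.6). The pipeline was run on simulated reads with known changes and slopes. The share recovered is not given here, so the power of the category and cohort comparisons is not stated.

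The members and lists were chosen with earlier results of these data known. Named were 8 members in all cases, CDH2, CDH8, CDH9, CDH13, PCDH9, PCDH10, PCDH17 and PCDH19. Further names were the 3 highest of each class, the 8 most and 8 least variable members of a mean of at least 50, the 3 higher and 3 lower of smallest p per comparison, the 3 and 3 past the threshold per score, up to 4 for exon use and up to 4 per pathway list. Members named outside this rule, such as CDH17, PCDHAC1 and PCDHB7, were chosen after their values were seen.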

Additional observations from a re-analysis of the deposited data

Results flagged for a closer look

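In 31 named members, 124 category groups were examined for a highest or lowest library whose gap to its neighbour was too large a share of the group's range by Dixon's test, and 9 were found. That test is built to flag about 1 in 20 groups of normally distributed values. All 9 flags were at the high end of their group, and normalized reads may be skewed, so this rate need not apply here. The share of groups flagged over all genes was not computed, and some members had been named for their wide spread. CDH13 was 2827 normalized reads in HD_6, against 1208 in the next HD library and a median of 1173. CDH19 was 493.9 in HD_1, with 293.4 next. CDH22 was 702.3 in VHD_2, with 508.3 next. CDH26 was 267.1 in LD_1, with 58.21 next, and PCDHA11 was 150.4 in the same library, with 97.98 next. PCDHA11 was also highest in VHD_3 at 97.51, with 69.71 next. CDH6 was 1174 in LD_8, with 647.7 next, and PCDHGC5 was 1336 there, with 866.3 next. PCDH10 was 6996 in HD_5, with 3814 next, in the library of the highest cortical and basolateral score.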

How the results depend on the processing

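No paired analysis was possible because the labels give no replicate numbers that the categories share. Folds of named members between categories kept their direction and stayed short of the threshold in 840 fits that left out 1 library and in 335 others, with 1 reversal, CDH12 in heavy against low drinkers without the cohort term (0.9995-fold, against 1.44). Slopes of named members kept their side of the threshold in 1634 leave-one-out fits and lost it in 18, and did so in 570 and 43 of the others. These slopes had been named for the smallest p past the threshold in the same libraries, so this stability was largely set by the choice. Counts over all members changed more, as given below.

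The number of members called went from 0 to 1 between cohorts with DESeq2 (CDH12) and with the 4 scores as covariates (PCDH1), an alternative chosen after seeing the data. Without the cohort term it was 22 on the cholinergic, 2 on the endothelial and 22 on the choroid plexus score, and with cohort and category as terms 4 on thalamus and 4 on myelin. With the median in place of the mean of a score's genes, 7 passed on choroid plexus. With 4 scores together, 2 passed on cortical, 2 on striatal, 3 on cholinergic and 1 on myelin. Without the 5 libraries of the highest cholinergic score, 0 passed on cholinergic, 4 on thalamus, 14 on astrocytes, 1 on myelin and 14 on precursors. The cause was not tested. Leaving out single libraries gave 13 to 27 on striatal, 14 to 27 on GABAergic, 15 to 27 on astrocytes and 4 to 13 on myelin. For most of these fits the share of all genes that passed is not given here, so the changes are not read as particular to the members.

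Of the 539 correlations, 187 passed over all libraries, 0 within cohort 4, 0 within cohort 5 and 40 within cohort 7a, where 7 or 8 libraries entered. The sign reversed for PCDHA11 with the cortical score within cohort 7a (0.052), PCDHGA2 with the striatal score within cohorts 5 (-0.17) and 7a (-0.27) and CDH2 with the myelin score within cohort 4 (0.17). Depth limits members of low counts, such as CDH17, PCDHA8 and PCDHB7, for which counting alone would give an SD of about 0.476, 0.352 and 0.345.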
